A study of Rattus norvegicus with 12 samples.

Results

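The Slc25 genes encode the mitochondrial carriers, and 45 of the 30560 genes in the count table carry a name made of Slc25a and a number, which was the rule that chose them. Of these, 44 had enough counts to be tested. The remaining member, Slc25a2, an ornithine carrier gene, had 0 counts in all 12 libraries, and a count of 0 allows up to 3 counts, or 0.421 to 0.902 CPM (counts scaled to a library of 1000000) depending on the library, for counting error only. Slc25a3, Slc25a16, Slc25a34 and Slc25a51 are not analysed here.

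Most, but not all, mitochondrial carriers are proteins of the inner mitochondrial membrane. These exchange nucleotides, organic acids, amino acids, acylcarnitines and cofactors between the matrix and the space outside it. Their genes lie in the nucleus, their mRNAs are translated in the cytosol, and the finished proteins are handed through the outer membrane by the TOM complex and inserted by the TIM22 complex. In skeletal muscle the family is best known for the ADP/ATP carrier Slc25a4, which exports newly made ATP to the contractile apparatus and is among the most abundant proteins of muscle mitochondria.

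RNA was sequenced as ribosomal RNA-depleted total RNA from mitochondrial preparations of hindlimb muscle (the design text names gastrocnemius) of 1 wild-type male Wistar Kyoto rat aged 14 weeks. All muscle pieces were homogenised and pooled, and each of the 4 groups of 3 libraries came from aliquots of that pool, so p-values here measure only the spread between these aliquots, which may be technical. In crude_RNase, differential centrifugation gave the mitochondria, which were then treated with RNase A, an enzyme that degrades accessible RNA. The IP_RNase group held mitochondria captured with magnetic beads by immunoprecipitation and treated with RNase A. The IP_RNase_ProK group was captured in the same way and received RNase A and proteinase K, a protease that removes proteins from the organelle surface. The mitoplast_RNase group held RNase A-treated mitoplasts, mitochondria without their outer membrane, made from captured organelles. The last 3 groups are called the captured preparations below. The libraries were made from 6.3 ng of RNA for crude_RNase and 40 ng for the others.

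Totals were 6583452 to 7123045 counts in the crude libraries and 3325430 to 4563254 in the captured ones. Mitochondrially encoded mRNAs took 22.9% to 28.8% of the crude counts and 1.49% to 5.59% of the captured counts, so RNA input, depth and this share all move with the contrast between crude and captured libraries. Their part in the results was not tested. The SD values below are over the 3 libraries of a group, and CPM values are scaled by TMM, a method that sets the typical gene equal between libraries. Without that step, counts divided by library totals alone moved the median of all genes to a log2 difference of +1.03, +1.09 and +1.08 (IP_RNase, IP_RNase_ProK and mitoplast_RNase against crude_RNase). Scaling to the olfactory receptor genes moved that median to -0.21, -0.12 and -0.11. Every direction below is therefore relative to the typical gene, except where raw counts or shares and ratios within a library are given.

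Relative to the typical gene, 4 of the 44 tested members were lower in each captured preparation than in crude mitochondria by edgeR's quasi-likelihood test with a Benjamini-Hochberg adjusted p under 0.05, and under scaling by library totals alone only Slc25a4 stayed lower while 42 members were higher. The 4 members are 9.09% of those tested, beside 5.09%, 5.04% and 4.54% of all 26483 genes lower in IP_RNase, IP_RNase_ProK and mitoplast_RNase. With 4 members, this share was not read as a property of the family. In IP_RNase and mitoplast_RNase the members were Slc25a4, Slc25a5, Slc25a11 and Slc25a12. In IP_RNase_ProK they were Slc25a4, Slc25a5, Slc25a12 and Slc25a39. By edgeR, 0 members were higher in any of these comparisons, beside 1.26%, 1.45% and 0.997% of all genes. At an unadjusted p under 0.05, 2 members were higher in each and 8, 7 and 6 were lower, beside 17.9%, 17.8% and 16.7% of all genes in either direction. DESeq2 called 3, 3 and 2 members lower in IP_RNase, IP_RNase_ProK and mitoplast_RNase, and 0 members higher in each. The comparisons share the crude libraries, so their lists are not independent of each other.

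Among the ADP/ATP carriers, Slc25a4 had the largest difference of the tested members. Slc25a4 (ENSRNOG00000010830), the ADP/ATP carrier isoform of heart and skeletal muscle, had 1122, 1150 and 952 counts in the crude libraries. It had 88, 54 and 70 counts in IP_RNase, 98, 76 and 73 in IP_RNase_ProK, and 77, 96 and 72 in mitoplast_RNase. Every captured library lay far below every crude library, and the captured preparations overlapped each other. As scaled levels these were 275.4 ± 29.1 CPM (SD, n = 3) in the crude libraries, 16.66 ± 3.58 in IP_RNase, 16.66 ± 0.979 in IP_RNase_ProK and 16.91 ± 1.70 in mitoplast_RNase. The log2 difference against crude was -4.04 (SE 0.105, adjusted p = 1.36e-36) in IP_RNase. It was -4.04 (SE 0.102, adjusted p = 3.11e-37) in IP_RNase_ProK and -4.02 (SE 0.102, adjusted p = 4.29e-37) in mitoplast_RNase. Between captured preparations its log2 differences were -0.0012, 0.020 and 0.021, with adjusted p of 0.999, 0.982 and 1.

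**Figure D1:**
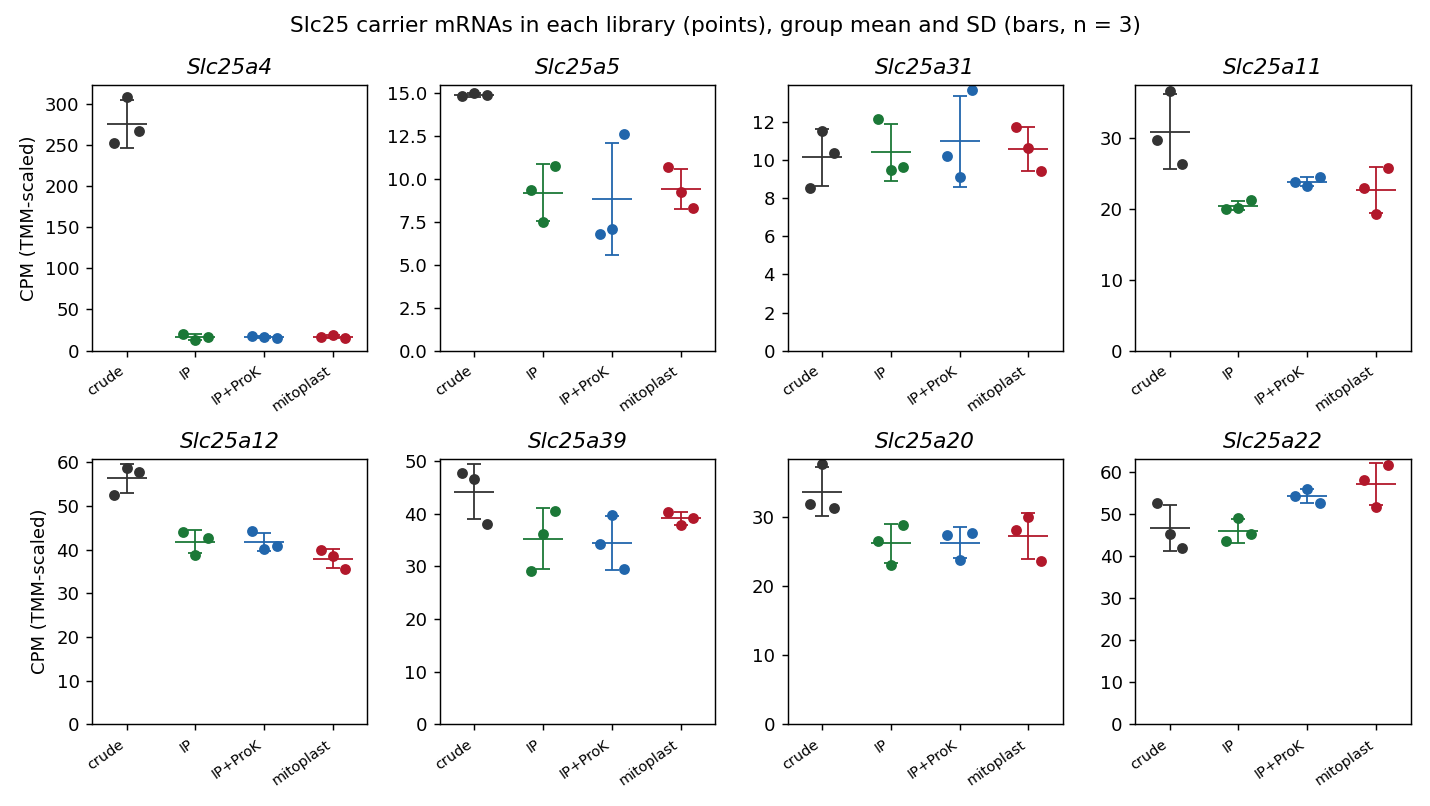
TMM-scaled CPM (vertical axes, each from 0) of 8 Slc25 members in the 3 libraries (points) of crude_RNase, IP_RNase, IP_RNase_ProK (IP+ProK) and mitoplast_RNase, with the group mean and SD as bars. Slc25a4 stood at 251.7 to 307.8 CPM in crude libraries and at 13.44 to 20.52 CPM in all others, while the remaining panels show differences of less than 2-fold between group means.

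Slc25a5 (ENSRNOG00000039980), the ADP/ATP carrier isoform of proliferating and many non-muscle cells, had 66, 56 and 53 counts in the crude libraries. It had 40, 30 and 47 counts in IP_RNase, 38, 32 and 59 in IP_RNase_ProK, and 51, 47 and 38 in mitoplast_RNase. After scaling, the crude libraries lay close together at 14.88 ± 0.0966 CPM and above all captured ones, of which the highest was IP_RNase_ProK 3 at 12.61 CPM. The log2 difference was -0.69 (SE 0.205, adjusted p = 0.0282) in IP_RNase, -0.76 (SE 0.201, adjusted p = 0.00958) in IP_RNase_ProK and -0.66 (SE 0.199, adjusted p = 0.0347) in mitoplast_RNase. These calls rest on few libraries. The call in IP_RNase was lost without IP_RNase 1 (adjusted p = 0.0848), IP_RNase 2 (0.16) or crude_RNase 3 (0.0557). In IP_RNase_ProK it was lost without IP_RNase_ProK 1 (0.144) or 2 (0.0871). In mitoplast_RNase it was lost without mitoplast_RNase 2 (0.114) or 3 (0.154) and without crude_RNase 2 (0.0629) or 3 (0.0708). DESeq2 did not call it in IP_RNase (adjusted p = 0.0887) or mitoplast_RNase (0.116). RefSeq's gene names for the rat hold 9 pseudogenes of Slc25a5, and how reads matching several copies were assigned is not given in the available sources, so its counts are uncertain.

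Slc25a31, the ADP/ATP carrier of the germ line, had 38, 43 and 37 counts in crude libraries. The captured ones had 52, 38 and 42 counts in IP_RNase, 57, 41 and 64 in IP_RNase_ProK and 56, 54 and 43 in mitoplast_RNase. Its scaled levels overlapped between crude and each captured preparation. The log2 differences were 0.05, 0.13 and 0.07, with 95% intervals from -0.37 to 0.53 over the 3 comparisons. These counts were near those of the median olfactory receptor gene, 30 to 35 in crude and 38 to 50 in captured libraries. Whether they exceed background was not tested, so they do not show that this mRNA is present.

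Slc25a6, whose name is that of a further ADP/ATP carrier isoform, was placed by the role list among less studied members. It had 42, 26 and 35 counts in the crude libraries. The captured ones had 40, 28 and 36 counts in IP_RNase, 55, 30 and 33 in IP_RNase_ProK and 36, 39 and 38 in mitoplast_RNase. Its scaled levels were 8.73 ± 1.55 CPM (SD, n = 3) in the crude libraries, and 8.18 ± 1.18, 7.85 ± 1.73 and 7.84 ± 0.428 in IP_RNase, IP_RNase_ProK and mitoplast_RNase, and each captured preparation overlapped the crude range. The log2 differences of -0.09, -0.14 and -0.16 did not pass (adjusted p 0.885, 0.815 and 0.796), with 95% intervals from -0.61 to 0.36. RefSeq names 2 rat pseudogenes of it, so its counts are uncertain as well. They were also near those of the median olfactory receptor gene, 30 to 35 in crude and 38 to 50 in captured libraries. Whether they exceed background was not tested.

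The unequal change of Slc25a4 and Slc25a5 can be read without any scaling between libraries, from their ratio within a library. Crude libraries held 18.5 ± 1.83 Slc25a4 counts per Slc25a5 count. The ratio was 1.83 ± 0.356 in IP_RNase, 2.06 ± 0.723 in IP_RNase_ProK and 1.82 ± 0.275 in mitoplast_RNase. No captured library came above 2.58 and no crude library below 17.0. The log2 ratio differed from crude by -3.35, -3.23 and -3.36. A two-sided exact permutation test gave p = 0.1 for each (0.2 after adjustment over 6 comparisons), which is the smallest p that 3 against 3 libraries allow. Slc25a5 had 53 to 66 counts in crude and 30 to 59 in captured libraries. The median olfactory receptor gene had 30 to 35 and 38 to 50. How much of the Slc25a5 count is background was not tested, and its room to fall was small.

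Slc25a4 also changed place within its family. It gave 17.3% ± 1.49 of all Slc25 counts in crude_RNase and 1.33% ± 0.296, 1.30% ± 0.081 and 1.31% ± 0.152 in IP_RNase, IP_RNase_ProK and mitoplast_RNase. By raw count it ranked 1 among the 45 members in each crude library and 31 to 37 in the captured ones. This ranks counts, not expression, since gene lengths were not used. Among all nuclear genes its count stood at the 99.7 to 99.8 percentile in crude libraries and at the 42.8 to 55.0 percentile in captured ones.

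Markers of the muscle fibre moved with Slc25a4. All 8 tested fibre markers were lower in each captured preparation, and their summed level was 4422 to 5799 CPM in crude libraries and 516.8 to 703.6 CPM in captured ones. Of the fibroblast markers, 5 of 5 were lower (summed 1540 to 1680 CPM against 335.8 to 367.8 CPM), whereas the summed endothelial markers were 439 to 464.1 CPM in crude and 417.1 to 453.2 CPM in captured libraries. Of the other cell types, 1 of 4 erythroid, 1 or 2 of 5 macrophage, 1 of 5 adipocyte and at most 1 of 5 Schwann cell markers were lower in a captured preparation, and 1 of the 5 adipocyte markers was higher in IP_RNase_ProK. Beside these counts, 5.09%, 5.04% and 4.54% of all genes were lower in IP_RNase, IP_RNase_ProK and mitoplast_RNase, and 1.45% were higher in IP_RNase_ProK. No marker of the listed cell types was at 0 in any library, and the part of these markers in the Slc25a4 result was not tested. In bulk RNA of this kind, less mRNA per organelle and fewer fragments of a given cell type in the preparation cannot be told apart. Acta1, skeletal muscle actin, fell further than Slc25a4, with a log2 difference of -6.01 (SE 0.122, adjusted p = 5.41e-41) in IP_RNase. There were 157.2 ± 9.98 Slc25a4 counts per 1000 Acta1 counts in crude_RNase, and 660.7 ± 269, 615.3 ± 98.8 and 628.8 ± 37.2 in IP_RNase, IP_RNase_ProK and mitoplast_RNase. The lowest captured library, at 432.1, exceeded the highest crude one, at 164.0. Captured libraries held only 54 to 98 Slc25a4 counts, at the 68.6 to 83.3 percentile of olfactory receptor genes. The captured ratios rest on these low counts, and whether Slc25a4 was retained relative to Acta1 was not tested.

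Set against mitochondrially encoded mRNA, Slc25a4 gave another order. There were 62.1 ± 10.6 Slc25a4 counts per 100000 mitochondrial mRNA counts in crude_RNase and 53.0 ± 18.1 in IP_RNase, where 2 libraries stood at 63.4 and 63.5 and IP_RNase 3 at 32.0. The crude and IP_RNase ranges overlapped. IP_RNase_ProK (118.6 ± 26.5) and mitoplast_RNase (117.9 ± 13.3) lay above all crude libraries. Over the 3 captured preparations Slc25a4 itself stayed near 17 CPM while all 13 mitochondrial mRNAs were lower in IP_RNase_ProK than in IP_RNase. These within-library ratios were chosen after Slc25a4 had been seen to differ. The low Slc25a4 counts of captured libraries limit them all. The low Slc25a5 counts and the reduced Acta1 counts of captured libraries limit the ratios to these genes as well.

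**Figure D2:**
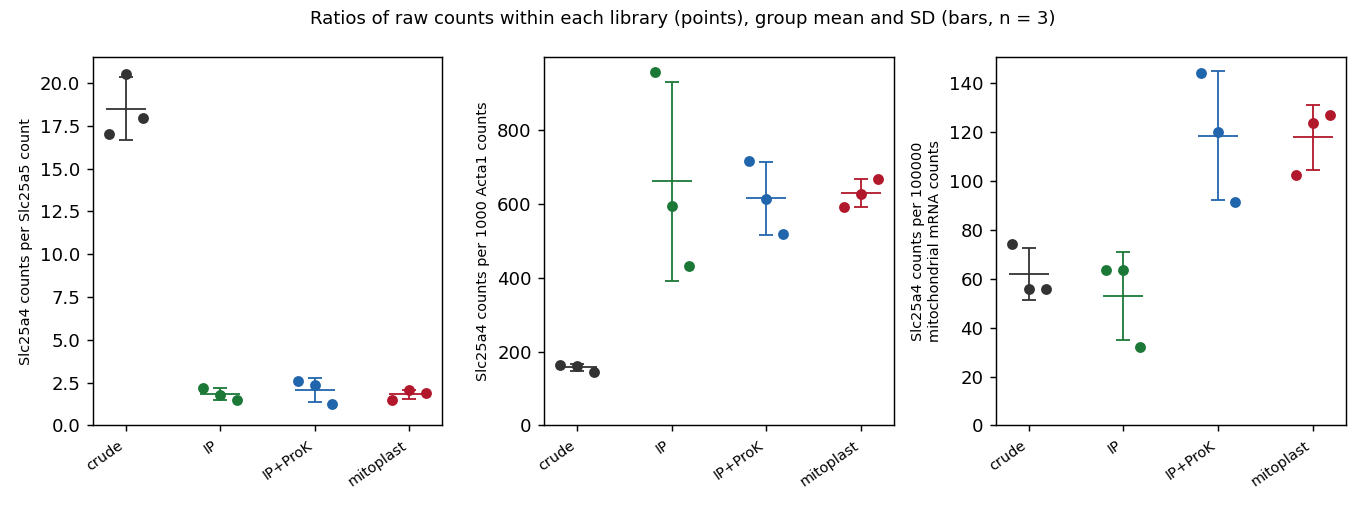
Slc25a4 counts per Slc25a5 count, per 1000 Acta1 counts and per 100000 mitochondrial mRNA counts (vertical axes from 0) in each library (points), with the group mean and SD (bars, n = 3). Crude libraries stand above all others per Slc25a5 count and below all others per 1000 Acta1 counts. Per 100000 mitochondrial mRNA counts their range overlaps that of IP_RNase, of which 1 library lies below every crude one.

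Slc25a12 and Slc25a11, of the malate-aspartate shuttle, were the other members called in IP_RNase and mitoplast_RNase. This shuttle moves reducing equivalents from cytosolic NADH into the matrix, and its inner-membrane steps are the aspartate/glutamate carriers Slc25a12 and Slc25a13 and the oxoglutarate/malate carrier Slc25a11. Slc25a12 (ENSRNOG00000022922), the calcium-regulated aspartate/glutamate carrier of muscle, heart and brain, stood at 52.49, 58.62 and 57.74 CPM in the crude libraries. It stood at 44.07, 38.82 and 42.60 CPM in IP_RNase, 44.16, 40.17 and 40.81 in IP_RNase_ProK, and 39.91, 38.50 and 35.48 in mitoplast_RNase. No captured library reached the crude range. The log2 difference was -0.42 (SE 0.0944, adjusted p = 0.0014) in IP_RNase, -0.42 (SE 0.0921, adjusted p = 0.000957) in IP_RNase_ProK and -0.56 (SE 0.0938, adjusted p = 1.07e-05) in mitoplast_RNase. Slc25a12 and Slc25a4 kept their calls in all 3 comparisons in each of the 12 fits that left out 1 library.

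Slc25a11 (ENSRNOG00000003815) stood at 29.83, 36.67 and 26.35 CPM in the crude libraries. It stood at 20.05, 20.16 and 21.30 CPM in IP_RNase, 23.78, 23.31 and 24.57 in IP_RNase_ProK, and 22.98, 19.25 and 25.84 in mitoplast_RNase. All 9 captured libraries lay below all 3 crude ones, with crude_RNase 3 nearest to them. The log2 difference was -0.59 (SE 0.135, adjusted p = 0.00174) in IP_RNase and -0.45 (SE 0.129, adjusted p = 0.0219) in mitoplast_RNase. In IP_RNase_ProK it was -0.37 (SE 0.128) and did not pass (adjusted p = 0.0687), but passed without crude_RNase 3 (0.0263). The call in mitoplast_RNase was lost without mitoplast_RNase 1 (adjusted p = 0.0614), mitoplast_RNase 2 (0.214) or crude_RNase 2 (0.218), by DESeq2 (0.0944), and in a fit of the 6 libraries compared (0.0681).

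Slc25a13, the aspartate/glutamate carrier of liver, was at 35.5 CPM in crude_RNase and 31.8 CPM in IP_RNase and passed in none of the comparisons. Slc25a22, a glutamate/proton symporter gene, stood at 46.66 ± 5.47 CPM in the crude libraries, 45.99 ± 2.77 in IP_RNase, 54.28 ± 1.69 in IP_RNase_ProK and 57.10 ± 5.01 in mitoplast_RNase. Its log2 differences against crude were -0.03, 0.21 and 0.28, with adjusted p of 0.915, 0.22 and 0.0727. The value passed without crude_RNase 1 in IP_RNase_ProK (log2 0.31, adjusted p = 0.0409) and in mitoplast_RNase (0.38, adjusted p = 0.00821), and without mitoplast_RNase 2 (0.35, adjusted p = 0.0365). Slc25a1 (citrate), Slc25a10 (dicarboxylates), Slc25a18 (glutamate) and Slc25a21 (oxodicarboxylates) complete this group of 8, whose mean levels were 19.69 to 57.10 CPM.

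**Figure D3:**
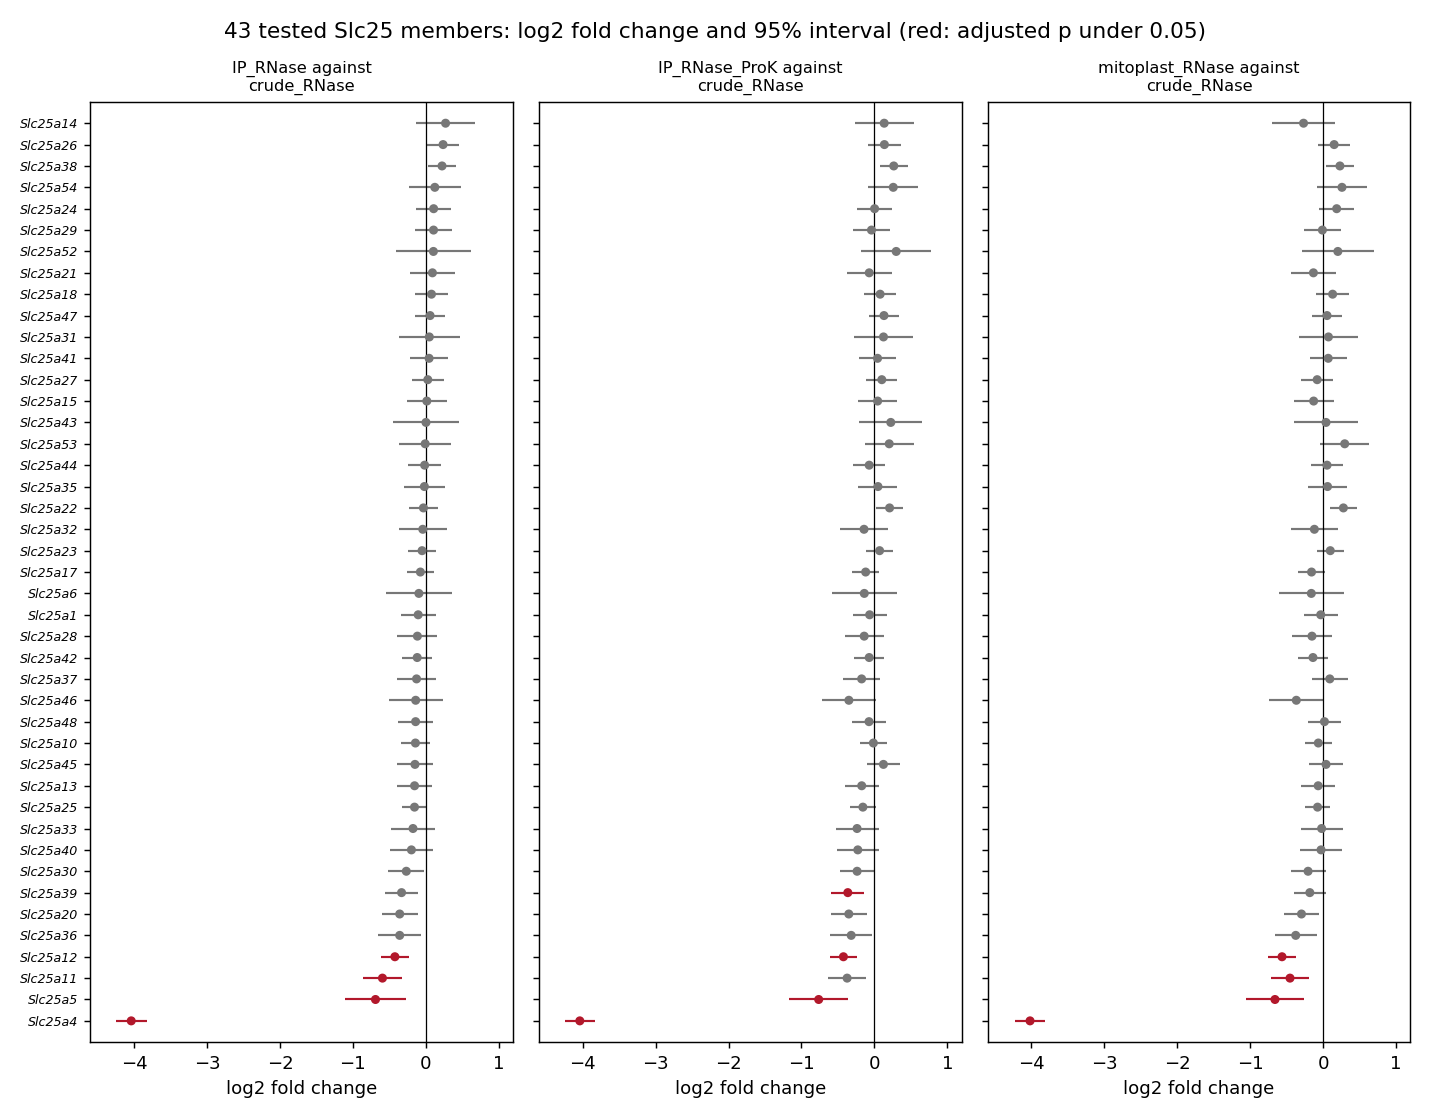
Log2 fold change (points) and 95% interval (lines) of 43 tested Slc25 members in IP_RNase, IP_RNase_ProK and mitoplast_RNase against the same 3 crude libraries, sorted by the first panel, with members past an adjusted p of 0.05 in red. Slc25a4 stands alone near -4, and the members that did not pass lie between -0.37 and 0.30.

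Slc25a39, a carrier needed for the import of glutathione into mitochondria, passed in IP_RNase_ProK. It stood at 47.77, 46.58 and 38.12 CPM in the crude libraries. Captured libraries were at 29.15, 36.08 and 40.54 CPM in IP_RNase, 34.33, 39.73 and 29.48 in IP_RNase_ProK, and 40.33, 37.91 and 39.20 in mitoplast_RNase. Each captured preparation overlapped the crude range, which crude_RNase 3 set at its lower end. The log2 difference was -0.36 (SE 0.112, adjusted p = 0.0353) in IP_RNase_ProK, -0.33 (adjusted p = 0.0732) in IP_RNase and -0.18 (adjusted p = 0.431) in mitoplast_RNase. Whether these differ from each other was not tested apart from the comparisons between captured preparations, where no member passed. The IP_RNase_ProK call was lost without IP_RNase_ProK 1 (0.121), IP_RNase_ProK 3 (0.254), crude_RNase 1 (0.124) or crude_RNase 2 (0.103), by DESeq2 (0.143) and in the 6-library fit (0.0736). Slc25a39 passed in IP_RNase without IP_RNase 3 (0.0273) or crude_RNase 3 (0.0248). RefSeq names 8 rat pseudogenes of it, so its counts share the uncertainty given for Slc25a5.

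Other members of the group for cofactors, nucleotides, iron and glutathione included Slc25a36, a pyrimidine nucleotide carrier, and Slc25a26, the S-adenosylmethionine carrier. Slc25a36 was at 21.76, 25.70 and 24.67 CPM in the crude libraries, 16.09, 17.67 and 22.22 in IP_RNase, 20.03, 19.75 and 17.73 in IP_RNase_ProK and 19.01, 21.02 and 15.11 in mitoplast_RNase. Only IP_RNase overlapped the crude range, through IP_RNase 3. The log2 differences of -0.36, -0.32 and -0.37 did not pass (adjusted p 0.16, 0.214 and 0.134). Slc25a26 was at 27.36, 33.46 and 35.60 CPM in the crude libraries, 34.51, 37.83 and 40.54 in IP_RNase, 33.26, 35.29 and 36.96 in IP_RNase_ProK and 37.40, 33.98 and 35.04 in mitoplast_RNase. Its ranges overlapped crude in all 3, and its log2 differences of 0.24, 0.14 and 0.15 did not pass (adjusted p 0.241, 0.57 and 0.54). The group also includes Slc25a17 (the peroxisomal carrier of CoA and related nucleotides), Slc25a32 (folate), Slc25a33 (pyrimidine nucleotides), Slc25a40 (glutathione), Slc25a42 (CoA), Slc25a52, and Slc25a28 and Slc25a37, the iron carriers called mitoferrins. The 12 tested members of the group had mean levels of 6.98 to 62.4 CPM.

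Among the carriers of acylcarnitines and amino acids, Slc25a20, the carnitine/acylcarnitine carrier that brings long-chain fatty acids to oxidation, was at 31.85, 37.74 and 31.39 CPM in the crude libraries. Captured libraries were at 26.58, 23.14 and 28.86 CPM in IP_RNase, 27.36, 23.75 and 27.78 in IP_RNase_ProK and 28.21, 30.05 and 23.65 in mitoplast_RNase. None reached the crude range, but Slc25a20 was chosen for its small p in IP_RNase, so the separation there is not further evidence. Its log2 differences of -0.36, -0.35 and -0.30 did not pass (adjusted p 0.0768, 0.073 and 0.17), although that in IP_RNase_ProK passed without crude_RNase 1 (-0.39, adjusted p = 0.0476). Scaled to the olfactory receptor genes, Slc25a20 passed in all 3 comparisons (log2 -0.57, -0.47 and -0.41, adjusted p 0.00213, 0.0155 and 0.0454). Slc25a38, the mitochondrial glycine carrier that supplies haem synthesis, was at 45.98, 45.51 and 45.69 CPM in the crude libraries, 58.53, 45.54 and 55.88 in IP_RNase, 59.54, 53.27 and 51.71 in IP_RNase_ProK and 54.95, 49.50 and 56.94 in mitoplast_RNase. Only IP_RNase overlapped the crude range, through IP_RNase 2. The log2 differences of 0.22, 0.27 and 0.23 did not pass (adjusted p 0.199, 0.0935 and 0.185). Slc25a15 (ornithine), Slc25a29 (basic amino acids) and Slc25a44 (branched-chain amino acids) complete the 5 tested members, with mean levels of 20.9 to 54.8 CPM.

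Slc25a30, one of 3 members that resemble uncoupling proteins, was at 29.38, 44.70 and 35.88 CPM in the crude libraries, a wider spread than in any captured group. It was at 28.68, 33.10 and 29.09 CPM in IP_RNase, 33.26, 28.41 and 30.55 in IP_RNase_ProK and 31.76, 33.98 and 28.69 in mitoplast_RNase. All overlapped the crude range through crude_RNase 1. The log2 differences of -0.27, -0.24 and -0.21 did not pass (adjusted p 0.231, 0.29 and 0.406), but without crude_RNase 1 the first was -0.42 (adjusted p = 0.0237) and the second -0.39 (0.0301). Slc25a14 and Slc25a27 are the other members of that group. The 4 ATP-Mg/phosphate carriers, which adjust the adenine nucleotide content of the matrix, were Slc25a23, Slc25a24, Slc25a25 and Slc25a41. They had log2 differences of -0.15 to 0.11 in IP_RNase, -0.16 to 0.07 in IP_RNase_ProK and -0.07 to 0.19 in mitoplast_RNase. Their mean levels were 25.6 to 75.9 CPM. The list of 9 less studied members held, beside Slc25a6, described above, Slc25a35, Slc25a43, Slc25a45, Slc25a46, Slc25a47, Slc25a48, Slc25a53 and Slc25a54. The 9 had mean levels of 7.84 to 39.1 CPM and log2 differences of -0.15 to 0.13 in IP_RNase, -0.35 to 0.26 in IP_RNase_ProK and -0.37 to 0.30 in mitoplast_RNase.

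Over the 3 comparisons with crude mitochondria, 5 members were called at least once and 39 never, and the lowest adjusted p among the latter was 0.0727. The precision for those that did not pass was moderate. In each comparison 40 members did not pass, and the 95% intervals of all 40 lay within 1 log2 unit of 0 in all 3 comparisons. Those of 32, 27 and 32 members lay within 0.5 in IP_RNase, IP_RNase_ProK and mitoplast_RNase. The median member had a log2 difference of -0.083, -0.067 and -0.041, beside 0.0069, 0.0034 and 0.0046 for the median of all genes. Single crude libraries moved this median. In IP_RNase_ProK it was -0.0165 without crude_RNase 1 and -0.0302 without crude_RNase 2, and in mitoplast_RNase -0.0224 without crude_RNase 1 and -0.0259 without crude_RNase 3.

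The share of the family in nuclear counts depended on Slc25a4. Without Slc25a4 its members summed to 0.1504% ± 0.00208 of the nuclear counts of crude libraries, and to 0.1554% ± 0.0013, 0.1587% ± 0.00127 and 0.1598% ± 0.00256 in IP_RNase, IP_RNase_ProK and mitoplast_RNase. The crude range ended at 0.1527% and the captured range began at 0.1541%, so this sum was slightly higher in every captured library. It is a share of all nuclear counts without TMM scaling, and other nuclear genes also changed that total. Its sign is therefore not comparable with that of the median member, which was slightly lower. With Slc25a4 the order turned, at 0.1805% to 0.1832% in crude libraries and 0.1567% to 0.1637% in captured ones. Across the 43 tested members other than Slc25a4, mean log2 CPM in IP_RNase and crude_RNase correlated with Pearson's r = 0.97, and with Slc25a4 included r was 0.76. These points share gene length and mapping between the groups, and genes are not independent replicates.

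Family counts were set beside those of olfactory receptor genes, which serve the sensory neurons of the nose and of which 1077 are in the table. Gene lengths were not used, so this describes counts, not expression. Their median was 30 to 35 counts in crude libraries and 38 to 50 in captured ones. The median tested Slc25 member had 3.52 ± 0.139 times that count in the crude libraries, 2.75 ± 0.172 times in IP_RNase, 2.96 ± 0.183 times in IP_RNase_ProK and 3.14 ± 0.0796 times in mitoplast_RNase. Of the members, 24 to 29 exceeded the 95th percentile of olfactory receptor genes in a crude library and 15 to 22 in a captured one. Scaled to the receptor genes, the median member differed from crude by log2 -0.30, -0.19 and -0.15 in IP_RNase, IP_RNase_ProK and mitoplast_RNase. The median of all genes moved the same way, to -0.21, -0.12 and -0.11. The fall against receptor genes was therefore not read as a property of the family. Slc25a4 exceeded all olfactory receptor genes in each crude library but stood at their 68.6 to 83.3 percentile in captured libraries. The other 43 tested members ranged from 21 to 382 counts over all 12 libraries.

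**Figure D4:**
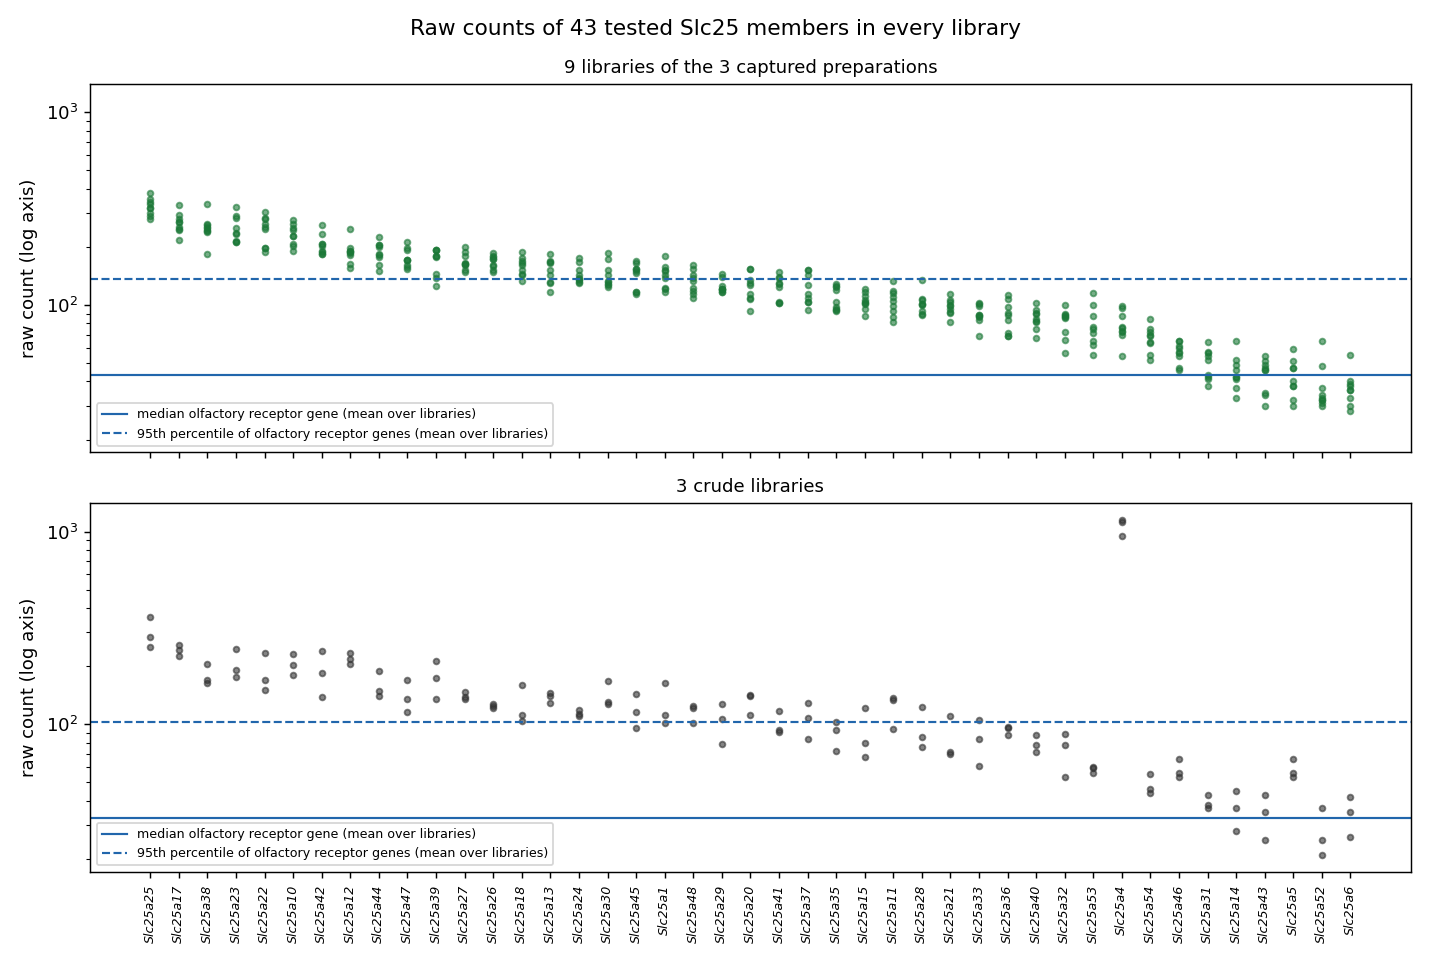
Raw counts (log axis) of 43 tested Slc25 members in the 9 captured libraries (top) and the 3 crude libraries (bottom), members ordered by their mean in captured libraries, with the median (solid) and 95th percentile (dashed) of olfactory receptor genes. Slc25a4 is at 952 to 1150 counts in crude libraries and among the lower members, at 54 to 98 counts, in captured ones.

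Between captured preparations, edgeR called 0 of the 44 members in each of the 3 comparisons. The share of all genes called in either direction was 0.14% for IP_RNase_ProK against IP_RNase, 0.155% for mitoplast_RNase against IP_RNase and 0% for mitoplast_RNase against IP_RNase_ProK. At an unadjusted p under 0.05, Slc25a22 (log2 0.24) and Slc25a45 (0.27) were higher in IP_RNase_ProK than in IP_RNase. By the same measure Slc25a22 was higher (0.31) and Slc25a14 lower (-0.54) in mitoplast_RNase than in IP_RNase, and Slc25a37 was higher (0.27) and Slc25a14 lower (-0.40) in mitoplast_RNase than in IP_RNase_ProK. Of all genes, 8.86%, 8.93% and 2.8% had an unadjusted p under 0.05 in these comparisons. The smallest adjusted p of any member was 0.442, 0.277 and 1 in the 3 comparisons. DESeq2 called 0 members in each, but gave no adjusted p for 43 members in the first and 44 in the second. The 95% intervals of all 44 members lay within 1 log2 unit of 0 in all 3, and those of 37, 38 and 38 lay within 0.5.

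Relatives of the family that carry other names were described beside it, as were the genes of its import route and other transporters of the organelle. Of the 5 relatives, 3 were lower in IP_RNase, 4 in IP_RNase_ProK and 3 in mitoplast_RNase, with DESeq2 calling 2 in IP_RNase_ProK. Of all tested genes, edgeR called 5.09%, 5.04% and 4.54% lower in these comparisons. Ucp3, the uncoupling protein of skeletal muscle, stood at 46.6 CPM in crude_RNase and 27.7, 31.9 and 33.0 CPM in IP_RNase, IP_RNase_ProK and mitoplast_RNase. Its log2 differences were -0.75 (adjusted p = 1.48e-06), -0.54 (0.000269) and -0.49 (0.00106). Mtch1, an outer-membrane carrier homologue that inserts proteins into that membrane, differed by -0.69 (adjusted p = 5.6e-06), -0.54 (0.000226) and -0.49 (0.000989). Ucp2 passed in IP_RNase (-0.44, adjusted p = 0.0124) and IP_RNase_ProK (-0.38, 0.0308), and its homologue Mtch2 in IP_RNase_ProK (-0.42, 0.0249) and mitoplast_RNase (-0.45, 0.0169). Ucp1, the uncoupling protein of brown fat, stood at 12.0 to 15.1 CPM and did not pass.

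The calls of Ucp2 and Mtch2 were lost under several settings. DESeq2 did not call Ucp2 in IP_RNase (adjusted p = 0.0568) or IP_RNase_ProK (0.123), nor Mtch2 in IP_RNase_ProK (0.0882) or mitoplast_RNase (0.0706). Mtch2 also missed the threshold in IP_RNase_ProK in the 6-library fit (0.0662). The call of Ucp2 was lost in IP_RNase without IP_RNase 1 (adjusted p = 0.143). It was lost in IP_RNase_ProK without IP_RNase_ProK 1, 2 or 3 or crude_RNase 1 or 3 (0.0525 to 0.119), and it was gained in mitoplast_RNase without mitoplast_RNase 3 (0.0195). That of Mtch2 was lost in IP_RNase_ProK without IP_RNase_ProK 2 or 3 or crude_RNase 2 or 3 (0.0638 to 0.269). In mitoplast_RNase it was lost without mitoplast_RNase 1, 2 or 3 or crude_RNase 2 or 3 (0.0525 to 0.151). Mtch2 passed in IP_RNase without crude_RNase 1 (0.0411). Without IP_RNase_ProK 2, IP_RNase_ProK 3 or crude_RNase 3, 2 of the 5 relatives were lower in IP_RNase_ProK.

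The import route hands carrier precursors from the cytosol to the inner membrane. Of its 13 tested genes, 1 passed, Tomm70, the outer-membrane receptor for carrier precursors. It was lower in IP_RNase_ProK (-0.45, adjusted p = 0.00453), where 5.04% of all genes were lower. Tomm70 missed the threshold there without IP_RNase_ProK 2 (0.0664) or crude_RNase 3 (0.0672). Without crude_RNase 1 it passed in IP_RNase (-0.40, adjusted p = 0.021) and mitoplast_RNase (-0.41, 0.0125). Import genes lower in IP_RNase numbered 1 without IP_RNase 3 and 2 without crude_RNase 1, those in IP_RNase_ProK numbered 2 without IP_RNase_ProK 1, and those in mitoplast_RNase numbered 1 without crude_RNase 1. Scaled to the olfactory receptor genes, 6, 3 and 1 import genes were lower in IP_RNase, IP_RNase_ProK and mitoplast_RNase. Of all 26483 tested genes, that scaling gave 4386, 1967 and 1737 lower. The median log2 difference of the 13 genes was -0.26, -0.26 and -0.14. Among 17 mitochondrial transport genes outside the family, 7 were lower in IP_RNase, 6 in IP_RNase_ProK and 6 in mitoplast_RNase. These were 41.2%, 35.3% and 35.3% of the list, beside 5.09%, 5.04% and 4.54% of all genes. The lower genes were Ckmt2, the creatine kinase of the space between the membranes that takes ATP from the ADP/ATP carrier, the outer-membrane channels Vdac1, Vdac2 and Vdac3, the pyruvate carrier subunits Mpc1 and Mpc2, and, in IP_RNase, the outer-membrane protein Tspo. Ckmt2 stood at 96.0 CPM in crude_RNase and differed by -1.40, -1.49 and -1.44 (adjusted p = 8.82e-19, 3.09e-20 and 1.09e-19). Vdac3 differed by -1.20, -1.04 and -0.82, Vdac1 by -0.58, -0.52 and -0.61, and Vdac2 by -0.62, -0.79 and -0.80, all past the threshold. The 279 tested solute carriers outside the family had 4, 3 and 3 members lower and 2, 4 and 6 higher in IP_RNase, IP_RNase_ProK and mitoplast_RNase, with medians of 0.02, 0.04 and 0.04. The lower ones were 1.43%, 1.08% and 1.08%, beside 5.09%, 5.04% and 4.54% of all genes. The higher ones were 0.717%, 1.43% and 2.15%, beside 1.26%, 1.45% and 0.997%.

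**Figure D5:**
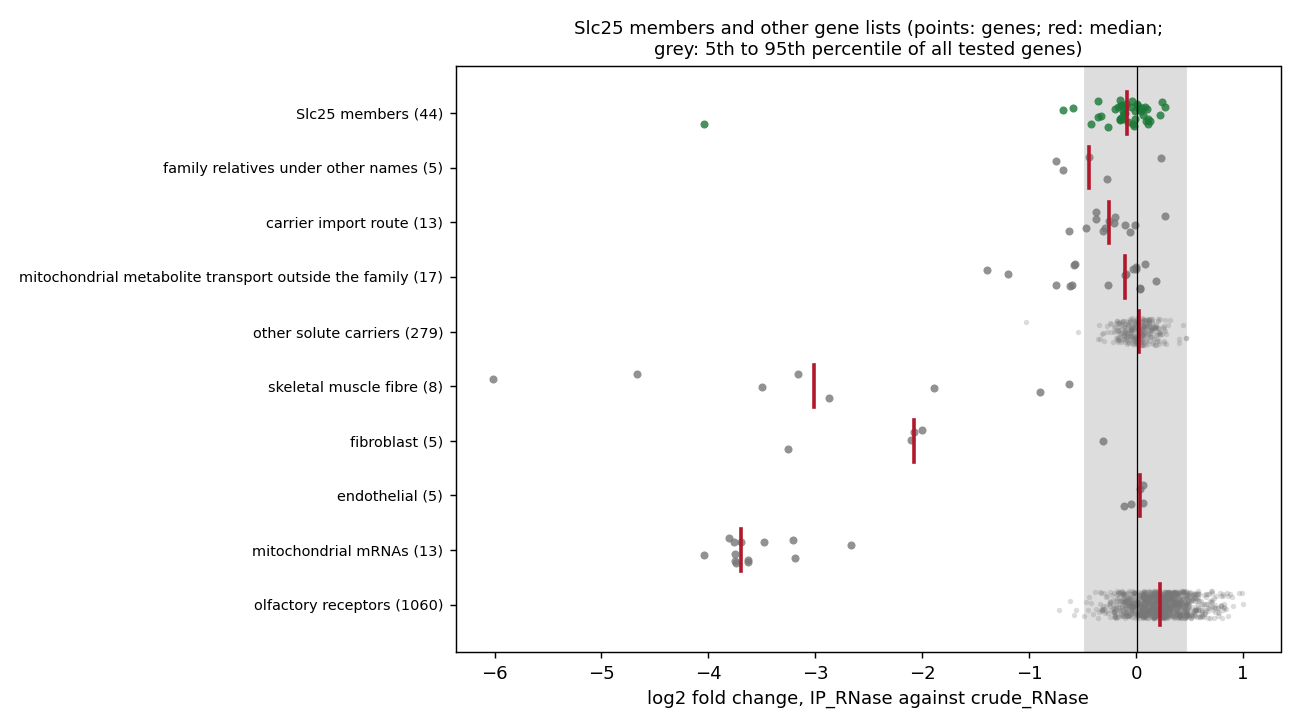
Log2 fold change of IP_RNase against crude_RNase for the genes (points) of the Slc25 family and of lists beside it, with the median of each list in red, the median of all 26483 tested genes as a thin line and their 5th to 95th percentile in grey. Most Slc25 members lie inside the grey band of -0.48 to 0.47, Slc25a4 lies among the muscle fibre markers and mitochondrial mRNAs, and the points are scattered vertically only to separate them.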

How the data were processed

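Values in the deposited table are whole-number read counts for each gene and were not normalised by the authors, per the file headers. The 12 libraries comprise 4 groups of 3. The tools, per the submitters' processing notes, were cutadapt 4.6, FastQC 0.74, HTSeq and STAR 2.7.11a, and the genome build was mRatBN7.2. Not given in the sources used here are the annotation release, the strand setting and how multiply matching reads were counted. Columns were matched to the labels' library descriptions, with 0 columns of other samples. For crude mitochondria the source label names immunoprecipitation while the title names crude mitochondria, and the title was followed.

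All 12 libraries entered 1 model in edgeR 4.0.16 (R 4.3.3) with TMM scaling, filterByExpr (minimum count 10, leaving 26483 of 30560 genes) and the quasi-likelihood F test, with Benjamini-Hochberg adjustment over all genes and a threshold of 0.05. The fitting script was tested on simulated data. The SE is the absolute log2 fold change over the square root of F, and the 95% interval follows from it. The F uses dispersions moderated over all genes and shared by the 4 groups. The spread was unequal. Between 2 libraries of a group, chi-square per degree of freedom was 4.69 to 12.9 in crude_RNase and 2.08 to 7.79 in IP_RNase. It was 1.25 to 1.84 in IP_RNase_ProK and 1.31 to 1.93 in mitoplast_RNase. The shared estimate may therefore understate the spread of crude libraries in the SE and adjusted p values. TMM factors were 0.525 to 0.679 in crude libraries and 1.12 to 1.23 in the others. Pseudogene names came from a RefSeq table, in which 45 of 45 members matched by symbol. The alternatives were DESeq2 1.42.0, its size factors, library size and olfactory receptor scaling, no filter, the 6 libraries compared, a replicate block and leaving out each library.

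The members and lists were chosen with earlier results of these data known. Named with values in every library were Slc25a4, Slc25a5, Slc25a31 and the 8 other members with the smallest p between IP_RNase and crude_RNase, and, with fewer values, members called in a comparison or at an unadjusted p under 0.05 and up to 4 genes of each list. Slc25a6, Slc25a13 and the within-library ratios were added after their values were seen. For members chosen by a small p, lack of overlap between IP_RNase and crude_RNase follows in part from that choice. A member that is counted but not named is not reported here. Listed genes that are not in the table under that name are not analysed here. Intervals and limits cover counting error and the spread of these aliquots only, and PCR copies are not independent molecules. The replicate numbers gave no sign of pairing the libraries, which cannot exclude it, and the main model did not use them.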

Additional observations from a re-analysis of the deposited data

How the results depend on the processing

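Tests ran on aliquots of 1 homogenate, so animals were not compared, and members near 50 counts carried standard errors of about 0.2. Under scaling by library totals alone, 1 member was lower and 42 higher in each comparison with crude_RNase. The signs that turned were, in IP_RNase against crude_RNase, those of Slc25a5 (0.333), Slc25a6 (0.926), Slc25a11 (0.434), Slc25a12 (0.606), Slc25a20 (0.67), Slc25a22 (0.99), Slc25a30 (0.772), Slc25a36 (0.67), Slc25a39 (0.689), Ucp2 (0.58), Ucp3 (0.29), Mtch1 (0.332), Mtch2 (0.761), Tomm70 (0.744), Vdac1 (0.46) and Vdac2 (0.403). In IP_RNase_ProK against crude_RNase they were those of Slc25a5 (0.321), Slc25a6 (0.94), Slc25a11 (0.713), Slc25a12 (0.662), Slc25a20 (0.735), Slc25a30 (0.856), Slc25a36 (0.77), Slc25a39 (0.717), Ucp2 (0.696), Ucp3 (0.552), Mtch1 (0.542), Mtch2 (0.669), Tomm70 (0.637), Vdac1 (0.574), Vdac2 (0.292) and Vdac3 (0.0495). In mitoplast_RNase against crude_RNase they were those of Slc25a5 (0.413), Slc25a6 (0.908), Slc25a11 (0.625), Slc25a12 (0.513), Slc25a20 (0.779), Slc25a30 (0.877), Slc25a36 (0.701), Slc25a39 (0.889), Ucp2 (0.747), Ucp3 (0.59), Mtch1 (0.581), Mtch2 (0.635), Tomm70 (0.779), Vdac1 (0.472), Vdac2 (0.276) and Vdac3 (0.255). Each of these shifts is close to that of the median of all genes. Over all genes that setting gave 189 lower and 25094 higher in IP_RNase, 185 and 25235 in IP_RNase_ProK, and 179 and 25236 in mitoplast_RNase. Beside Slc25a20, olfactory receptor scaling added, among the named genes recomputed with it, calls of Slc25a30 (adjusted p = 0.0101), Slc25a36 (0.00847), Slc25a39 (0.0056), Mtch2 (0.012) and Tomm70 (0.00326) in IP_RNase, Slc25a11 (0.0194) in IP_RNase_ProK, and Slc25a36 (0.0386) and Tomm70 (0.0265) in mitoplast_RNase. It gave 10 members lower in IP_RNase and, over all genes, 4386 lower and 58 higher there, 1967 and 80 in IP_RNase_ProK, and 1737 and 53 in mitoplast_RNase. DESeq2 gave 2 members lower in mitoplast_RNase, and over all genes 139, 157 and 105 higher in place of 335, 385 and 264. In the 6-library fits 170, 250 and 153 genes were higher, and between captured preparations 74 genes were lower and 69 higher (IP_RNase_ProK against IP_RNase), 73 and 42 (mitoplast_RNase against IP_RNase) and 0 and 11 (mitoplast_RNase against IP_RNase_ProK). The cause was not tested. Leaving out each library gave 3 to 5 members lower in IP_RNase than in crude_RNase, 2 to 5 in IP_RNase_ProK and 2 to 4 in mitoplast_RNase. The count of 2 arose without IP_RNase_ProK 1 in the second and without mitoplast_RNase 2 or crude_RNase 2 in the third. Members higher were 0 to 0, 0 to 1 and 0 to 1, the 1 being Slc25a22. Between captured preparations, members lower and higher were 0 to 0 in each. The log2 difference of the Slc25a4 to Slc25a5 ratio was -3.49 to -3.21, -3.43 to -2.9 and -3.45 to -3.23 against crude_RNase, and -0.0758 to 0.454, -0.144 to 0.138 and -0.458 to 0.0714 between captured preparations. With the replicate number as a block, 4 members were lower and 0 higher in each comparison with crude_RNase. No call changed among the 84 log2 differences of named genes recomputed with this block. Pairing leaves the mean log2 ratio differences unchanged by arithmetic, so it is no check of them. The 18 correlations between same-numbered libraries were -0.102 to 0.0665, none over 0.1, which gave no sign of pairing. With 3 libraries per group, such values cannot exclude that same-numbered aliquots were handled together.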
